A study of Mus musculus with 11 samples.

Results

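The 10 genes described here, Krt90, Upk1b, Cadm3, Slc6a12, Pamr1, Pgf, Isx, Ackr1, Car6 and Edn2, were listed because they read higher on both arrays of cells given Klf4 alone than on arrays of cells given a reprogramming cassette or lacZ. They are 10 of 19938 measured genes, and each was read by 1 probe set. Because these values chose the genes, the height of the Klf4-alone arrays is a description and was not tested. The comparison tested here lies among the cassettes, between those that encode a long and a short form of Klf4.

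The cells were mouse embryonic fibroblasts (MEFs) from male F1 hybrid embryos of 13.5 days post coitum, whose mothers were ROSA-rtTA homozygous (C57Bl6 backcross) and whose fathers carried a Nanog-GFP BAC transgene (C57Bl6/129SV hybrid). All groups, lacZ included, therefore carried the doxycycline-responsive activator. The reporter came from the fathers, whose zygosity is not given here. All were transfected with a PB-TAC piggyBac transposon, which inserts into the genome, together with transposase, and received doxycycline at 1 µg/mL after 24 h. Cells of 8 polycistronic cassettes (STEMCCA, WTSI, EB-C5, OKMS, OK+9MS, OKN-HAMS, OSKM and MKOS) and of Klf4S and Klf4L were sorted for the mCherry reporter on day 6, while lacZ cells were harvested unsorted on day 2. Each construct was measured once, on 1 array, in a population of transfected cells, so a spread within a group is a spread between constructs. In comparisons with lacZ, effects of day, of sorting and of the transgene cannot be told apart.

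Klf4 is a zinc finger transcription factor of differentiating epithelia, where it is known for its part in the skin barrier and in the gut. In reprogramming it acts with Oct4, Sox2 and c-Myc. Proteins of its family bind GC-rich elements known as CACCC boxes. The long form carries 9 more residues at its amino terminus than the short form, as the names OK+9MS and Klf4+9 (the title of Klf4L) record.

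The labels give the form for OK+9MS and its partner OKMS and for Klf4L and Klf4S. For OSKM and MKOS (long) and for STEMCCA, EB-C5 and WTSI (short) the form was taken from what is known of the study and not from the labels. The long group thus held 3 cassettes and the short group 4. The label of OKN-HAMS names an HA tag, so this cassette was kept apart.

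Promoters of 4 of the genes are shown so that windows with many, few and no CACCC boxes can be seen side by side. Windows of 300 bases around an annotated start, most of each window before it (RefSeq, build GRCm38.p6), were available for 8 of the 10 genes, 13 windows in all. Upk1b and Pamr1 had none. The motif CACCC was searched on both strands, and capitals below mark each CACCC or its reverse complement GGGTG. Cadm3 lies at chr1:173367646-173367945 and Ackr1 at chr1:173333454-173333753, Krt90 at chr15:101562901-101563200, all on the minus strand, and Isx at chr8:74872924-74873223 on the plus strand.
Cadm3: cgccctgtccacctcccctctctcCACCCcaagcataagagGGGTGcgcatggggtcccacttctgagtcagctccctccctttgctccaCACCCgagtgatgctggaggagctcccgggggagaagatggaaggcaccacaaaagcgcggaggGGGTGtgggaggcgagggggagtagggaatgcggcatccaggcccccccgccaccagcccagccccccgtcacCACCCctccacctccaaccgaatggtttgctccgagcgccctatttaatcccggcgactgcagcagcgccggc
Ackr1: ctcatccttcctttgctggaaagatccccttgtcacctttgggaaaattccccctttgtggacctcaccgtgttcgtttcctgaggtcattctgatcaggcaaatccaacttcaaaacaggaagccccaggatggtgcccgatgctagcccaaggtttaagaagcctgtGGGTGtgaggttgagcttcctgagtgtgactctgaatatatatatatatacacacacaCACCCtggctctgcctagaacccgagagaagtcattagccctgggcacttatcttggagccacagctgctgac
Krt90: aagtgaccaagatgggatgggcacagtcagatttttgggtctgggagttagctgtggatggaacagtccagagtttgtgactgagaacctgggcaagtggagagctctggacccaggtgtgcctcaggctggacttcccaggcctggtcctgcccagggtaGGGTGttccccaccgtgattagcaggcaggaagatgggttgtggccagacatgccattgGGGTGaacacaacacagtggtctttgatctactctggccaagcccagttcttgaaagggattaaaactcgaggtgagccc
Isx: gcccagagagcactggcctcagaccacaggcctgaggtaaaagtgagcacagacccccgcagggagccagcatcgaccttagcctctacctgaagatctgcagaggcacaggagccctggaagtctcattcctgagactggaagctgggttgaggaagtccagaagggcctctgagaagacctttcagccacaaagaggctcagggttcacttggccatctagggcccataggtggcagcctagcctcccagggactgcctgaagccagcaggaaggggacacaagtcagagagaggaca
The window of Cadm3 held 5 matches, those of Ackr1 and Krt90 held 2 each, and that of Isx held 0. By gene, 7 of the 8 had at least 1 match in some window, Isx being the exception. The share of all genes was not counted in this way, and genes with more windows had more chances of a match. By window, 10 of the 13 had a match, against 57.5% of all 32851 promoter windows of this length. Of the 13, however, 5 belong to Slc6a12, partly overlapping, and 2 to Pgf. The longer motif CCACACCC, which contains CACCC, was found in 1 of the 13 windows, that of Cadm3, against 3.56% of all windows. A match is a stretch of letters and not a measured binding site.

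The values are log2 expression values. Array medians ran from 7.19 to 7.27, and no gene of the 10 read under 6 on any array. Many of the lower readings lay below the array medians, where the values do not tell signal from background, and differences from such readings may be understated. In cell populations, fewer cells of a kind and less RNA per cell cannot be told apart. The Klf4 signal itself lay between 9.64 and 10.20 in the short cassettes and at 9.65 in MKOS and 9.81 in OK+9MS, with OSKM between OK+9MS and the highest short cassette. Klf4S read 9.93, Klf4L 9.71 and lacZ 9.47, and the forms overlapped. Probe positions were not given in the sources used here, and transgene and endogenous Klf4 transcripts were not told apart. Pou5f1 (Oct4) read 11.89 to 13.22 in the cassettes and 6.06, 5.84 and 6.09 with Klf4S, Klf4L and lacZ. Myc lay at 9.86 to 10.91 in cassettes and at 9.05, 8.65 and 9.54 with Klf4S, Klf4L and lacZ, while Sox2 read 6.22 to 7.76, 6.24, 6.33 and 6.79 in the same order and did not separate them.

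Fibroblast markers read high in every group, which does not by itself settle what the cells were. Some epithelial genes also read high, such as the keratin Krt8 with a mean of 13.22 in the long cassettes. The mean of 13 fibroblast markers was 10.50 to 11.39 over the long and short cassettes, 10.62 in OKN-HAMS, 11.75 in both Klf4-alone arrays and 10.69 in lacZ, and 0 of the 13 were under 6 throughout any group. The list was thus highest where the 10 genes were highest, and its part in their height was not tested. The 2 Klf4-alone arrays were the most alike of all 55 pairs of arrays, with an SD of the log2 difference over genes of 0.126, against 0.214 for the next pair, OK+9MS and OSKM.

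Both Klf4-alone arrays lay above the other 9 arrays in all 10 genes, a pattern that 12.8% of all genes shared. The lower Klf4 array exceeded the highest other array by at least 2-fold in 38 genes (0.191% of all), and the 10 genes are among them. The gap ran from 1.05 on the log2 scale in Pamr1, the 34th of all genes, to 2.60 in Cadm3, the 2nd. It was 1.32 or more for every gene when MKOS, the array nearest to Klf4 alone in Pamr1, was left out. Against the mean of the cassettes the difference ran from 1.94 (Edn2) to 4.37 (Krt90), with a median of 2.85 over the 10 genes. Against lacZ it ran from 2.45 (Edn2) to 5.98 (Krt90), with a median of 2.89. Of all genes, 1.91% lay at least 2-fold above lacZ in Klf4 alone and 1.95% below it, as all 10 and 0 of the 10 did.

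**Figure D1:**
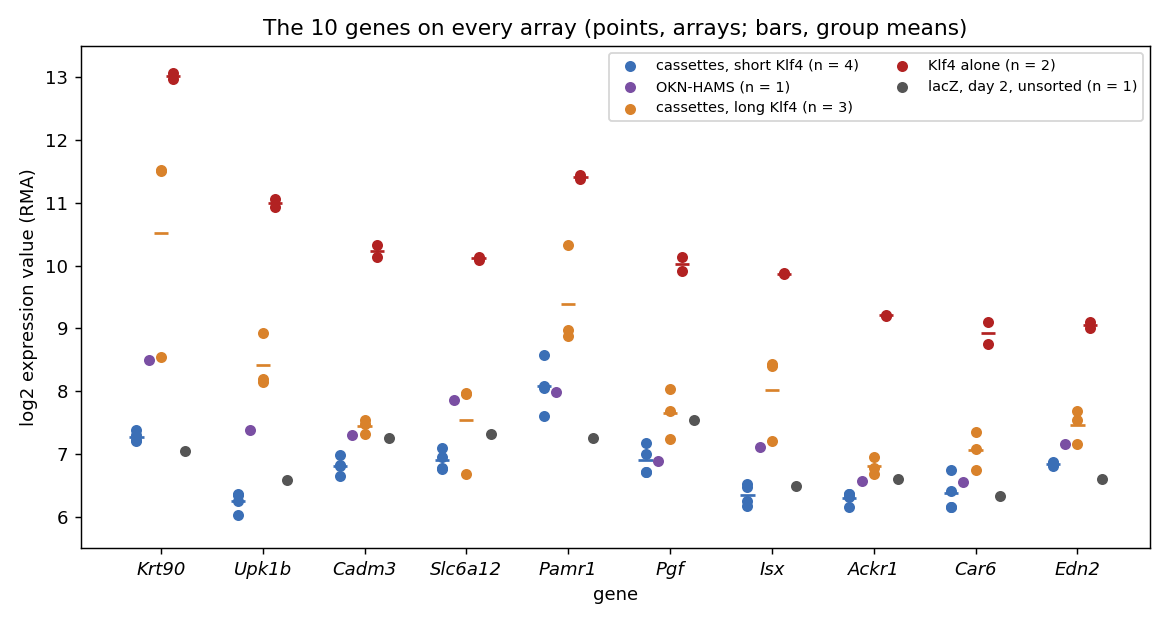
Log2 expression values of the 10 genes (x axis) on all 11 arrays (points), coloured by group, with bars for group means where a group holds more than 1 array. The Klf4-alone points lie highest for every gene, and the long cassettes lie above the short ones on average, with Krt90 at 11.52, 11.50 and 8.55 in the long cassettes and 7.22 to 7.38 in the short ones.

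Krt90, a type II keratin and thus a subunit of epithelial intermediate filaments, read 7.22 in OKMS, 7.30 in STEMCCA, 7.38 in EB-C5 and 7.23 in WTSI. It read 11.52 in OK+9MS, 11.50 in OSKM and 8.55 in MKOS. OKN-HAMS gave 8.50, Klf4S 13.07, Klf4L 12.97 and lacZ 7.04. The short cassettes stayed close to lacZ, and the long ones split, with MKOS near OKN-HAMS and far below the other long arrays. Whether its probes also match related keratins was not tested.

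Upk1b encodes uroplakin 1b, a tetraspanin of the urothelial surface plaque. Its readings were 6.36 (OKMS), 6.25 (STEMCCA), 6.36 (EB-C5) and 6.03 (WTSI) in the short cassettes and 8.20 (OK+9MS), 8.92 (OSKM) and 8.15 (MKOS) in the long ones. OKN-HAMS gave 7.38, Klf4S 11.07, Klf4L 10.94 and lacZ 6.58. The groups did not overlap: each long cassette was above the tagged one, which was above each short one and lacZ.

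Cadm3, a cell adhesion molecule of the nectin-like family best known from neurons, read 6.65, 6.98, 6.81 and 6.82 in OKMS, STEMCCA, EB-C5 and WTSI. The long cassettes OK+9MS, OSKM and MKOS read 7.48, 7.33 and 7.54, and OKN-HAMS read 7.30. Klf4S reached 10.33 and Klf4L 10.14, against 7.25 in lacZ, so the cassettes lay on both sides of lacZ and far below Klf4 alone.

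Ackr1 encodes the atypical chemokine receptor of erythrocytes and venular endothelium (the Duffy antigen receptor), which binds inflammatory chemokines without the usual signalling. The short cassettes read 6.37 (OKMS), 6.36 (STEMCCA), 6.32 (EB-C5) and 6.16 (WTSI) and the long ones 6.96 (OK+9MS), 6.67 (OSKM) and 6.78 (MKOS). OKN-HAMS read 6.56, Klf4S 9.22, Klf4L 9.20 and lacZ 6.61. All cassettes were thus low, with the long ones a little above the short ones. In the RefSeq annotation the span of Ackr1 overlaps that of Cadm3, and both promoters are on the same strand. Whether the signals of these neighbours are separate was not tested.

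Isx, an intestinal homeobox transcription factor that controls vitamin A uptake, read 6.17 in OKMS, 6.52 in STEMCCA, 6.48 in EB-C5 and 6.25 in WTSI. OK+9MS gave 7.20, OSKM 8.44, MKOS 8.40 and OKN-HAMS 7.12. Klf4S read 9.88 and Klf4L 9.86, against 6.49 in lacZ. OSKM and MKOS stood nearest to Klf4 alone, and OK+9MS was close to the tagged cassette.

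Edn2, the vasoconstrictor peptide endothelin 2, read 6.87, 6.84, 6.81 and 6.85 in OKMS, STEMCCA, EB-C5 and WTSI. It read 7.68 in OK+9MS, 7.54 in OSKM, 7.17 in MKOS and 7.17 in OKN-HAMS. Klf4S gave 9.10, Klf4L 9.01 and lacZ 6.61. The short cassettes were nearly level with each other, and all 8 cassettes lay above lacZ.

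Pgf, placental growth factor, a ligand of the VEGF family, lay between 6.71 and 7.18 in the short cassettes and at 7.25 (OK+9MS), 8.04 (OSKM) and 7.69 (MKOS) in the long ones. It read 6.89 in OKN-HAMS, 10.14 in Klf4S and 9.91 in Klf4L, and 7.54 in lacZ. In 6 of the 8 cassettes it was thus below lacZ.

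Pamr1 encodes a secreted peptidase-like protein with CUB and EGF-like domains that was named for muscle regeneration. It read 7.61 to 8.59 in the short cassettes and 8.88 (OK+9MS), 8.98 (OSKM) and 10.33 (MKOS) in the long ones, with 7.99 in OKN-HAMS, 11.44 in Klf4S and 11.38 in Klf4L, and 7.26 in lacZ. All cassettes exceeded lacZ, and MKOS was nearest to Klf4 alone.

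Slc6a12, the betaine and GABA transporter BGT1, and Car6, the secreted carbonic anhydrase of saliva, were the genes in which long and short cassettes overlapped. Slc6a12 read 6.77 to 7.09 in the short cassettes and 7.98 (OK+9MS), 7.95 (OSKM) and 6.68 (MKOS) in the long ones, with 7.87 in OKN-HAMS, 10.14 in Klf4S and 10.09 in Klf4L, and 7.32 in lacZ. MKOS was therefore the lowest cassette in this gene, and the tagged cassette was among the highest. Car6 read 6.16 to 6.75 in the short cassettes and 6.75 (OK+9MS), 7.36 (OSKM) and 7.08 (MKOS) in the long ones, with 6.56 in OKN-HAMS, 8.76 in Klf4S and 9.10 in Klf4L, and 6.33 in lacZ. The overlap in Car6 was a tie between OK+9MS and STEMCCA.

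**Figure D2:**
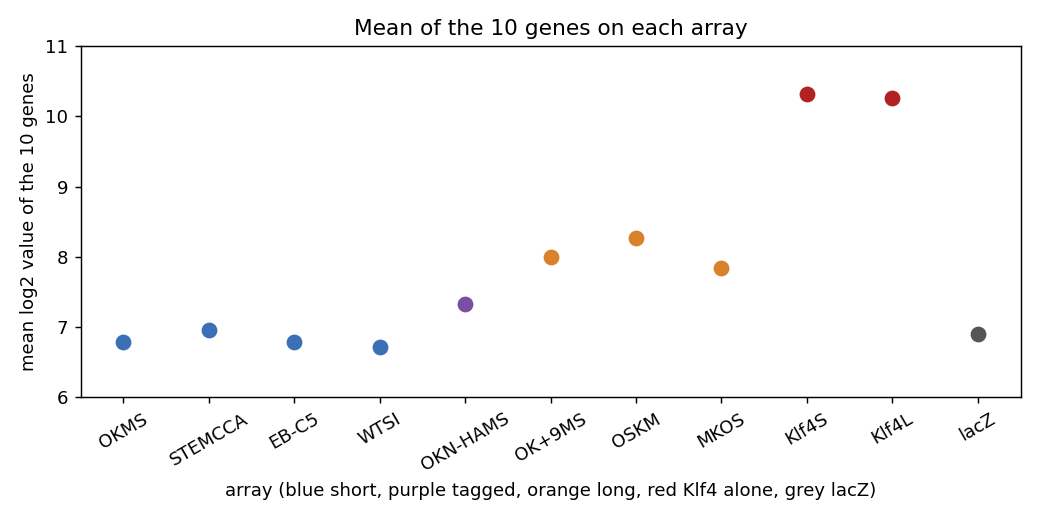
Mean log2 value of the 10 genes (y axis) on each of the 11 arrays (x axis), 1 point per array. The short cassettes sit between 6.72 and 6.95 beside lacZ at 6.91, OKN-HAMS at 7.33, the long cassettes between 7.84 and 8.27, and Klf4S and Klf4L at 10.32 and 10.26.

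Averaged over the 10 genes, the arrays fell into this order: WTSI (6.72), OKMS (6.78), EB-C5 (6.79) and STEMCCA (6.95) among the short cassettes, then OKN-HAMS (7.33), then MKOS (7.84), OK+9MS (7.99) and OSKM (8.27) among the long ones. The highest cassette was a long one for each gene, OSKM in 4 genes, OK+9MS in 4 and MKOS in 2. Over the 8 cassettes the genes varied together, with a Pearson r above 0 in 44 of 45 pairs and a median of 0.74. This describes 8 arrays that were normalized together, and all pairs share them.

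The long cassettes were compared with the short ones to see whether the form of Klf4 went with these genes when the other factors were present. The cassettes also differ in other ways, since names such as OSKM, MKOS and OKMS record different orders of the factors. In this comparison, effects of the form and of other differences between constructs cannot be told apart. All 10 genes were higher in the long cassettes, as were 44.3% of all genes. The median log2 difference of the 10 was 0.72, against -0.02 over all genes. Of the 10, 6 passed the test (limma, Benjamini-Hochberg adjustment over all genes, adjusted p under 0.05), against 2.81% of all genes called higher and 1.17% called lower. Upk1b rose by 2.18 ± 0.19 on the log2 scale (SE, n = 3 against n = 4, limma adjusted p = 0.00125), which is 4.52-fold. Krt90 rose by 3.25 ± 0.66 (adjusted p = 0.038, limma), or 9.48-fold, with a wide 95% interval of 1.72 to 4.77. Isx rose by 1.66 ± 0.28 (adjusted p = 0.0211), or 3.16-fold. The remaining calls were smaller: Cadm3 by 0.63 ± 0.09 (adjusted p = 0.0126), Edn2 by 0.62 ± 0.11 (adjusted p = 0.0253) and Ackr1 by 0.50 ± 0.08 (adjusted p = 0.0176).

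The other 4 genes did not pass. Pamr1 differed by 1.31 ± 0.37 (limma adjusted p = 0.104), Pgf by 0.75 ± 0.20 (adjusted p = 0.0865), Car6 by 0.69 ± 0.19 (adjusted p = 0.104) and Slc6a12 by 0.64 ± 0.30 (adjusted p = 0.306). Of these, the 95% interval of Slc6a12, from -0.05 to 1.33, alone reached 0. All 3 long arrays lay above all 4 short arrays in 8 of the 10 genes, Slc6a12 and Car6 being the exceptions, against 7.4% of all genes.

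**Figure D3:**
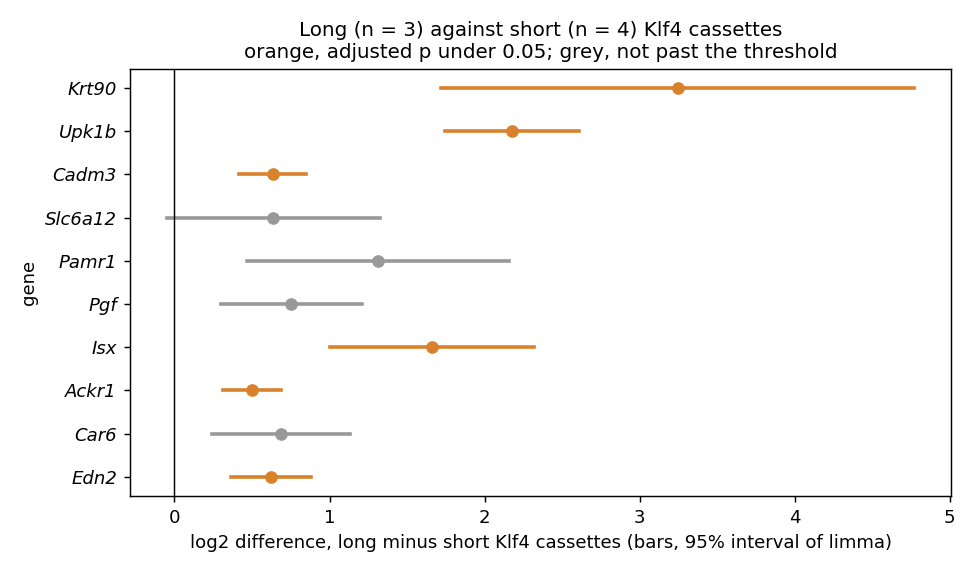
Log2 difference between long (n = 3) and short (n = 4) Klf4 cassettes for each gene (points), with the 95% interval of the limma fit (bars). Orange marks an adjusted p under 0.05, which 6 of the 10 genes reached, and every point lies above 0.

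The calls rested on the fit across all 11 arrays, in which the nearly identical Klf4S and Klf4L arrays added to the estimate of spread. With the 8 cassettes alone 3 of the 10 genes passed: Upk1b (limma adjusted p = 0.00631), Cadm3 (adjusted p = 0.0286) and Ackr1 (adjusted p = 0.0471). The same 3 passed, with the same adjusted p, without Klf4S or without Klf4L. Upk1b passed without each of the 11 arrays in turn (adjusted p from 0.000757 to 0.00631). Cadm3 and Ackr1 lost their call only without OK+9MS (adjusted p = 0.0567 and 0.0543). Isx lost it without WTSI (0.0505), OSKM (0.0883), Klf4S (0.0551) or Klf4L (0.0551). Krt90 lost it without OKMS (0.0784), EB-C5 (0.0813), WTSI (0.0789), OK+9MS (0.133), OSKM (0.139), Klf4S (0.0866) or Klf4L (0.0866). Edn2 lost it without OKMS (0.0522), EB-C5 (0.0609), WTSI (0.0554), OK+9MS (0.0752), OSKM (0.108), Klf4S (0.0604) or Klf4L (0.0604). Slc6a12 gained a call without MKOS (adjusted p = 0.00233), and Car6 without STEMCCA (adjusted p = 0.0384). Of the 10, 2 passed without OK+9MS, 3 without OSKM and 3 without WTSI. Leaving out OKN-HAMS or lacZ could not change the fit. Counting OKN-HAMS as long ended the call of Krt90 (adjusted p = 0.0761). On the 4 arrays whose labels give the form, with the cassette and the Klf4-alone pair averaged, 0 of the 10 passed (adjusted p = 0.943 for Upk1b). The differences kept their sign throughout, although that of Pgf was only 0.0046 on those 4 arrays.

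Of 10 keratinocyte markers, 3 were called between long and short cassettes, and the mean of the list was not tested. The mean of the 10, which hold none of the genes described here but share Krt1 and Krt5 with the keratin list below, was 6.58 to 6.89 in the short cassettes, 7.87 to 8.30 in the long ones, 7.97 in OKN-HAMS, 7.65 to 7.81 in Klf4 alone and 6.84 in lacZ. The desmoglein Dsg3 was under 6 on all short arrays and in lacZ. Their part in the differences of the 10 genes was not tested. A list of 8 urothelial and mesothelial markers, of which 2 were called and which holds Upk3b and the 3 further uroplakins, averaged 7.03 to 7.22 in the short cassettes, 7.72 to 7.91 in the long ones, 7.78 in OKN-HAMS, 7.70 to 7.74 in Klf4 alone and 7.51 in lacZ, and its part was not tested either. The mean of 8 endothelial markers, which would accompany Ackr1 in a vessel, lay between 6.60 and 6.90 over all arrays, with Emcn under 6 in the long cassettes, OKN-HAMS and Klf4 alone, and 0 of the 8 called. The mean of 6 intestinal markers, which would accompany Isx, lay between 6.25 and 6.66, with 0 of the 6 called. Fabp2, the intestinal fatty acid binding protein, was under 6 on all arrays. The mean of 5 measured blood markers lay between 6.31 and 6.66, with Ptprc and Adgre1 under 6 in every group and 1 of the 5 called. That of 6 muscle markers lay between 6.76 and 7.25, with Myf5 under 6 in every group and 0 of the 6 called.

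The choice of genes placed every cassette below Klf4 alone, so the distances that follow are a description. On the log2 scale the mean of the long cassettes covered from 17.2% (Ackr1) to 56.5% (Krt90) of the distance between the short cassettes and Klf4 alone, with a median of 27.5%. Upk1b covered 45.8% and Isx 47.2%. Klf4 alone exceeded the long cassettes by 1.59 (Edn2) to 2.78 (Cadm3).

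The tagged cassette OKN-HAMS covered from -2.75% (Pamr1) to 30.1% (Slc6a12) of the same distance. It exceeded the mean of the short cassettes in 8 of the 10 genes, all but Pamr1 and Pgf, and in 42.5% of all genes. It lay below the mean of the long ones in 9, all but Slc6a12, while 49.1% of all genes lay above that mean. With 1 array of OKN-HAMS, its contrasts borrow their spread from the other constructs. Against the short cassettes 0 of the 10 passed (limma, 2 at an unadjusted p under 0.05), and 0.597% of all genes were called higher. Against the long cassettes 0 of the 10 passed (3 at an unadjusted p under 0.05), and 0 of all genes did, with 1755 at an unadjusted p under 0.05.

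The labels alone give 2 pairs of long and short form. Within the cassettes, OK+9MS exceeded OKMS in all 10 genes, by 0.24 (Pgf) to 4.30 (Krt90), with a median of 0.82. In fold terms Krt90 was 19.7-fold, Upk1b 3.59-fold, Isx 2.06-fold and Slc6a12 2.03-fold higher in OK+9MS. These 4 of 10 reached 2-fold, against 2.3% of all genes in that direction, while 0 of the 10 and 0.878% of all genes were 2-fold lower, and these pairs of single arrays were not tested on their own. Without other factors the forms differed by at most 0.34 on the log2 scale in these genes. The genes were chosen for high readings on both of these arrays, which favours like readings in this pair. Klf4L minus Klf4S ran from -0.23 (Pgf) to 0.34 (Car6), with a median of -0.08, and only Car6 read higher in Klf4L. Among all genes 0 differed by 2-fold between these arrays in either direction (0%).

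The long minus short difference of the cassettes less that of Klf4 alone was above 0 in all 10 genes and in 54.1% of all genes. The median over the 10 was 0.90, in a fit chosen after the values were seen. None of the 10 passed after adjustment over all genes (limma adjusted p = 0.453 for Upk1b, the lowest of the 10, with 5 of the 10 at an unadjusted p under 0.05), and 0 of all genes did (0%), with 815 at an unadjusted p under 0.05. The Klf4-alone side of this contrast is 1 array against 1, with no spread of its own, and these are arrays by which the genes were chosen. A difference between contexts was therefore not shown.

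**Figure D4:**
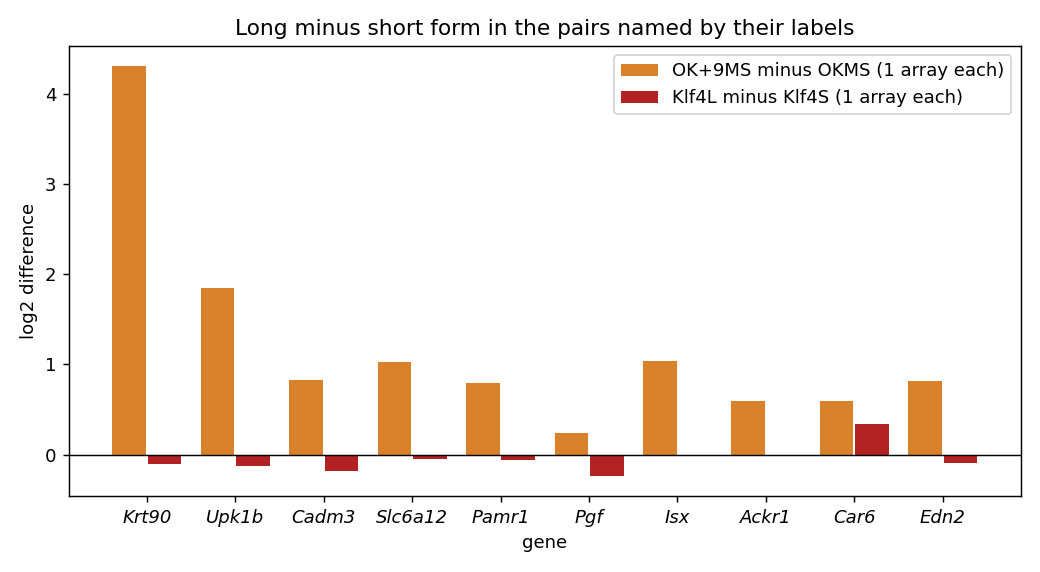
Log2 difference between the long and the short form for each gene in the pairs named by their labels, OK+9MS minus OKMS (orange) and Klf4L minus Klf4S (red), with 1 array each and therefore no error bars. The cassette pair runs from 0.24 to 4.30 and the Klf4-alone pair from -0.23 to 0.34.

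Set against lacZ, the short cassettes read lower in 6 of the 10 genes, and their means differed from lacZ by -0.64 (Pgf) to 0.83 (Pamr1). The long cassettes read higher than lacZ in all 10, by 0.11 (Pgf) to 3.48 (Krt90), and by at least 2-fold in Krt90, Pamr1, Upk1b and Isx. The choice of genes favoured low lacZ readings, and these differences were not tested. Shares of all genes were not counted for the long or the short cassettes against lacZ, so these counts are a description. The mean of all 8 cassettes was at least 2-fold above lacZ in Krt90 and Pamr1, 2 of the 10, against 2.33% of all genes. It was 2-fold below lacZ in 0 of the 10, against 2.4% of all genes.

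The relatives of the 10 genes were followed through lists of their families and pathways, 84 genes of which 81 were measured. Of these 81, 6 were called higher and 1 lower in the long cassettes (limma, adjusted over all genes), against 2.81% and 1.17% of all genes. The median long minus short difference was 0.01, against -0.02 over all genes. The count of 7 was 3 with the cassettes alone, without Klf4S, without Klf4L, without OSKM or without OK+9MS, 2 without EB-C5, 4 without WTSI and 12 without STEMCCA. Klf4 alone exceeded the mean of the cassettes by 2-fold in 4 of the 81 (2.49% of all genes) and lay 2-fold below it in 2 (3.29% of all genes).

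Among 17 other type II keratins 3 were called higher in the long cassettes and 0 lower. Krt6a, a keratin of stressed and wounded epidermis, rose by 3.94 ± 0.34 (limma adjusted p = 0.00125), from a short mean of 5.82, near the low end of the arrays. Krt80 rose by 2.81 ± 0.23 (adjusted p = 0.000897), and both calls held without each array in turn. Krt8, the keratin of simple epithelia, rose by 3.38 ± 0.57 (adjusted p = 0.0201). That call was lost without EB-C5, OK+9MS, OSKM, Klf4S or Klf4L, with adjusted p up to 0.0894. Krt6b, another stress keratin, differed by 2.30 ± 1.64 (adjusted p = 0.533). Krt90 read highest in Klf4 alone by the choice of genes, whereas these keratins were not so chosen and read highest in cassettes. Krt8 averaged 13.22 in the long cassettes and read 13.39 in OKN-HAMS, against 10.97 in Klf4S and 11.23 in Klf4L. Krt6a averaged 9.77 in the long cassettes, against 7.88 in Klf4S and 8.46 in Klf4L. The Klf4-alone mean was 2-fold above that of the cassettes in 0 of the 17.

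Of 4 other uroplakins, Upk3b alone followed Upk1b. It read 6.76 to 6.94 in the short cassettes, 7.20 to 7.59 in the long ones, 7.05 in OKN-HAMS, 8.49 in Klf4S and 8.90 in Klf4L, and 7.11 in lacZ. It was higher in the long cassettes by 0.62 ± 0.13 (limma adjusted p = 0.038). That call was lost without OKMS, EB-C5, WTSI, OSKM or MKOS (adjusted p up to 0.145). Upk1a, Upk2 and Upk3a, the further plaque proteins, differed between long and short by -0.28, -0.09 and 0.03, and none passed.

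**Figure D5:**
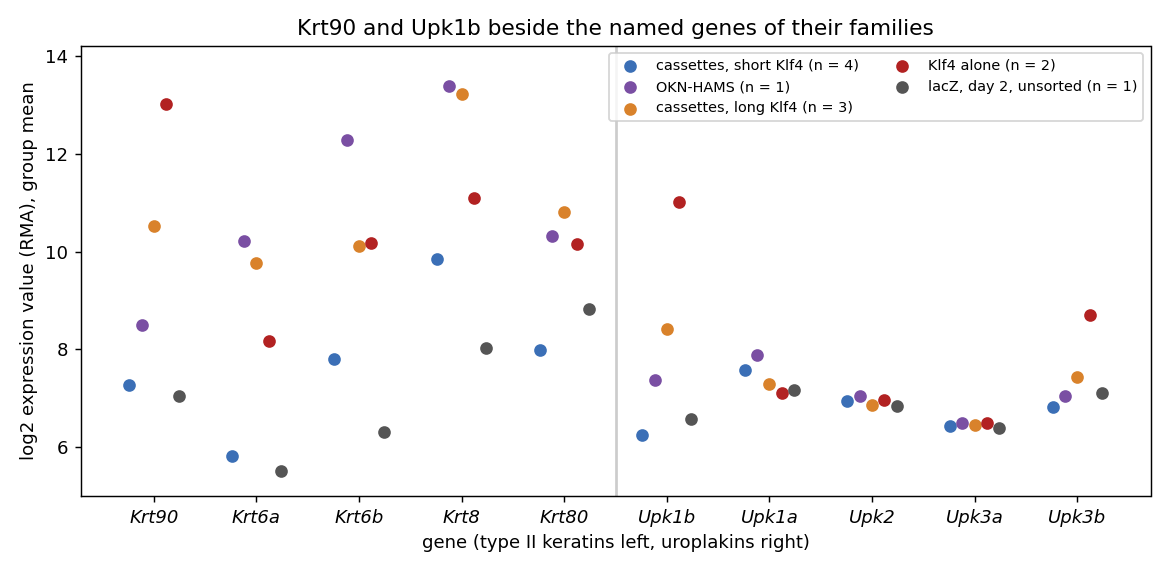
Group mean log2 values (1 array for OKN-HAMS and lacZ) of Krt90 and 4 other type II keratins on the left and of Upk1b and the 4 other uroplakins on the right. Krt90 and Upk1b are highest in Klf4 alone, for which they were chosen. Krt8 is highest in OKN-HAMS (13.39) and the long cassettes (13.22), and among the other uroplakins Upk3b is the one raised in Klf4 alone.

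In the adhesion list of Cadm3, 2 of 6 measured genes were called higher in the long cassettes. Nectin4 was higher by 1.02 ± 0.19 (limma adjusted p = 0.0284) and Cadm4 by 0.57 ± 0.11 (adjusted p = 0.038). Nectin4 lost its call without OKMS, EB-C5, OK+9MS, OSKM, Klf4S or Klf4L (adjusted p up to 0.114), and Cadm4 without those arrays or WTSI (up to 0.0909). Cadm1 ran the other way from Cadm3: it averaged 8.88 in the short and 7.27 in the long cassettes (difference -1.61 ± 0.51, adjusted p = 0.142) and read 7.09 in Klf4S and 6.97 in Klf4L.

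In the protease list of Pamr1, both Klf4-alone arrays lay above the other 9 in 4 of 5 genes, against 12.8% of all genes. The median of that list in Klf4 alone was 0.88 above the cassettes and 0.86 above lacZ. In the VEGF list of Pgf 3 of 9 genes lay so, with medians of 0.73 against the cassettes and -0.11 against lacZ. These differences were not tested. C1s1, a serine protease of the complement C1 complex with CUB domains like those of Pamr1, read 9.94 in Klf4S and 9.92 in Klf4L, against 7.40 to 8.69 in the short cassettes, 8.56 to 9.24 in the long ones and 6.52 in lacZ. Its long minus short difference was 1.09 ± 0.33 (limma adjusted p = 0.123), and 0 of the 5 proteases passed. Of 9 VEGF ligands and receptors 0 passed. Flt1, the receptor that binds Pgf, read 8.84 in Klf4S and 8.97 in Klf4L, against 7.14 to 8.18 in the short cassettes, 8.14 to 8.57 in the long ones and 8.15 in lacZ. Vegfa read 10.36 and 10.50 in Klf4S and Klf4L and 10.24 in lacZ.

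Of 15 other carbonic anhydrases 0 passed. The mitochondrial Car5b read 10.28 in Klf4S and 10.49 in Klf4L, against 8.20 to 9.71 over the long and short cassettes, but 10.46 in lacZ. The cytosolic Car2 was lower in Klf4 alone than in the cassettes, at 5.79 in Klf4S and 6.12 in Klf4L against 7.12 to 9.35 over the long and short cassettes and 5.49 in lacZ. Of the other endothelins, their receptors and processing enzymes 0 of 6 passed. Edn1 read 6.40 to 7.59 in the short cassettes, 7.21 in Klf4S and 6.84 in Klf4L, and 7.80 in lacZ. Among 4 further transporters of the SLC6 family and 5 genes linked to Isx in the gut 0 passed, and the intestinal master regulator Cdx2 read 6.09 to 6.42 on every array. In the list of atypical receptors and Ackr1 ligands, the eosinophil chemokine Ccl11 was called lower in the long cassettes (-0.58 ± 0.12, limma adjusted p = 0.0441). That call was lost without any of OKMS, STEMCCA, EB-C5, WTSI, OK+9MS, OSKM, Klf4S or Klf4L (adjusted p up to 0.154). Ackr3, the scavenger of Cxcl12, read 8.69 in Klf4S and 8.86 in Klf4L against 6.92 to 8.38 over the long and short cassettes and 8.09 in lacZ.

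The genes whose profile over the 11 arrays was most like the mean standardised profile of the 10 were Cnfn (Pearson r = 0.987), Il18 (0.985), Crnn (0.983), Pglyrp3 (0.977), Upk3b (0.976), Aox1 (0.972), Dsc3 (0.972) and Ly6a2 (0.971). Cnfn encodes cornifelin of the cornified envelope, Il18 a cytokine that epithelia also make, and Dsc3 a desmosomal cadherin. Over 11 arrays this likeness is set mostly by the Klf4-alone arrays, it shares arrays and normalization, and by Spearman's rho 0 of these 8 were among the first 8. The rise from short to long was part of it: Cnfn averaged 7.17 in the short cassettes, 9.14 in the long ones and 12.05 in Klf4 alone, and read 8.35 in OKN-HAMS and 7.16 in lacZ. Of all 38 genes with both Klf4-alone arrays at least 2-fold above the rest, 36 were higher on average in long than in short cassettes, against 44.3% of all genes. Of the 38, 12 were called higher and 0 lower (2.81% and 1.17% of all genes), with a median difference of 0.59. The 10 genes are part of that set, which was chosen by the same values, so the count is a description.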

How the data were processed

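Gene expression was measured on 11 Affymetrix mouse gene arrays, 1 per construct, whose number limits the precision. The deposited values are log2 values that the authors made with RMA, per the submitters' processing notes, with no version named. Of 28856 probe sets, 21789 had 1 gene symbol, 1621 several and 5446 none in the platform annotation; the first were kept, 21698 of them matched a current Entrez entry, and the probe set with the highest mean stood for each of 999 genes with several, giving 19938 genes without a filter. The long and short cassettes were compared with limma 3.58.1 (R 4.3.3) in a fit of 5 levels over 11 arrays with 6 residual degrees of freedom, Benjamini-Hochberg adjustment and a threshold of 0.05. OKN-HAMS and lacZ added no spread and were assumed to vary like the rest. Labels do not name separate cultures, so p-values measure the spread between constructs. In data simulated for this comparison on 19938 genes, 84% of changes of 1 and 94% of changes of 2 (log2) were recovered, with 8 false calls. The noise was independent and took its spread from the same fit, Klf4S and Klf4L included. These rates therefore hold only under the assumptions of that fit. Named relatives were the called genes of each list, then those with the largest difference of Klf4 alone from the cassettes, up to 4. The genes and lists were chosen with earlier results of these data known. The contrasts of OKN-HAMS and of the 2 contexts were added after the data were seen. Alternatives are given in the closing section. Promoters came from RefSeq (GRCm38.p6).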

Additional observations from a re-analysis of the deposited data

How the results depend on the processing

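The sign of every difference of the 10 genes between long and short cassettes was the same under all alternatives in which the gene was tested. On the 4 arrays whose labels give the form, the difference of Pgf was only 0.0046. Calls were lost in 30 of the 186 values under these alternatives and gained in 2. Many of the 186 are repeats: leaving out OKN-HAMS or lacZ gives the same fit as all 11 arrays, and leaving out Klf4S or Klf4L the same as the 8 cassettes alone. In all, 795 genes were called, 561 higher and 234 lower. With the 8 cassettes alone the count was 376 (286 higher, 90 lower), with 3 of the 10 genes and 3 of the family genes. On the 4 arrays whose labels give the form, where the cassette and Klf4-alone pairs are averaged, 0 genes were called (0 of the 10, 0 of the family genes; limma, 219 at an unadjusted p under 0.05), with a median over the 10 of 0.42. With arrays centred on their medians 372 were called lower of 827, so that 55.0% were higher against 70.6%. Among genes above the median level 145 were called lower, and 3 of the 6 of the 10 genes left were called (Krt90, Upk1b and Cadm3), with a median of 1.03 over those 6. Leaving out 1 array at a time gave 280 to 1367 genes (230 to 882 higher, 50 to 485 lower), from 306 without OK+9MS and 280 without OSKM to 1367 without STEMCCA, with 376 without either Klf4-alone array. It gave 2 to 7 of the 10 genes, 2 to 12 family genes, a median of 0.64 to 0.90 and a smallest gap of Klf4 alone over the other arrays of 1.05 to 1.32. By Spearman's rho 0 of the 8 and 0 of the 5 most similar genes were shared. Counting OKN-HAMS as long left 5 of the 10 called, without Krt90. The fit on the 4 arrays whose labels give the form compared the forms within each pair. Beyond it no paired analysis was possible, because the labels give no replicate numbers. Signals near the low end of the arrays limit what could be seen in the short cassettes and lacZ.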

Other observations

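Over the 8 cassettes alone, where the Klf4-alone arrays play no part, the named genes most like the mean profile of the 10 were Arhgap27 (Pearson r = 0.990), Pip4k2c (0.990), Rab11a (0.982), Elf1 (0.982) and Chit1 (0.980), after 1 unnamed gene. Of these 5, 4 had a lower mean in Klf4 alone than in the long cassettes, Rab11a (10.80 and 10.62) being the exception. The 10 could not show this, since they were chosen for high Klf4-alone readings. Chit1, a chitinase, averaged 6.08 in the short and 8.33 in the long cassettes and read 7.28 in OKN-HAMS, but averaged 6.35 in Klf4 alone against 6.26 in lacZ.

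Cadm3 and Ackr1 are each other's neighbours on the chromosome. Of 18 measured neighbours that are not among the 10, 4 read higher on both Klf4-alone arrays than on the other 9 (12.8% of all genes do), and 0 exceeded the cassette mean by 2-fold. Aim2, the cytosolic DNA sensor next to Cadm3, ran the other way from Cadm3 in Klf4 alone. It averaged 5.74 there, against 7.90 in the short cassettes, 9.09 in the long ones and 6.10 in lacZ. Between long and short cassettes Aim2 had the same sign as Cadm3, and its difference of 1.19 did not pass (limma adjusted p = 0.197). Slc6a13, a related transporter next to Slc6a12, averaged 6.50, 6.57 and 6.45 in the short cassettes, the long cassettes and Klf4 alone. No value among the 10 genes stood apart from its group by the gap test in the short cassettes or in all 8 (20 combinations of gene and group). The gap test was not run on the long cassettes as a group of their own. There MKOS lay far from the others in Krt90 (8.55 against 11.50 and 11.52) and in Slc6a12 (6.68 against 7.95 and 7.98).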
